A study of Mus musculus with 15 samples.

Results

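The 9 genes described here encode the enzymes that write, copy and remove DNA methylation: Dnmt1, Dnmt3a, Dnmt3b, Dnmt3l, Uhrf1, Tet1, Tet2, Tet3 and Tdg. They were picked by symbol, as a named set, and are 9 of the 55228 genes listed in every library. RNA was sequenced from the mouse embryonic stem cell (mESC) line 81K1, a single clone based on the line OG2, in which doxycycline switches on a Smarcb1 shRNA cassette placed in the Rosa26 locus. All cells, controls included, carried this cassette and grew on gelatine in medium with serum and LIF. The 15 libraries formed 5 groups of 3: cells without doxycycline at 48 h and at 240 h (48 h ctrl, 240 h ctrl), and cells given doxycycline daily for 48 h, 72 h or 240 h (48 h kd, 72 h kd, 240 h kd). No line without the shRNA that received doxycycline was analysed here, so the drug and the knockdown cannot be told apart. Nothing states that replicates came from separate cultures, so p-values measure the spread between these libraries, which may be technical.

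DNA methylation in mammals is the addition of a methyl group to cytosine, mostly where cytosine precedes guanine (CG). Dnmt3a and Dnmt3b place it on unmethylated DNA (de novo methylation), helped by Dnmt3l, a relative without catalytic activity. Dnmt1 copies the marks onto the new strand after replication and is guided there by Uhrf1. The TET enzymes oxidise methylcytosine, and Tdg, a DNA glycosylase, cuts out the most oxidised forms so that base excision repair can restore plain cytosine.

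Library totals lay between 11074998 and 14515300 reads, recovered from the deposited FPKM values (fragments per kilobase of gene span, scaled to the library total). Smarcb1, the target of the shRNA, lay between 3.31 and 3.93 FPKM in the 6 ctrl libraries and between 0.503 and 0.820 FPKM in the 9 kd libraries. The 8 markers fixed for embryonic stem cells were above 0 in every group and summed to 1566 to 2635 FPKM. One library, 48 h kd replicate 2, stood apart in its share of mitochondrial reads, 2.53%, where the other libraries held 0.507% to 1.95%. It held the highest Tet1, Tet2 and Tet3 values and the lowest Dnmt3b, Dnmt3l, Uhrf1 and Tdg values of its group. Its Smarcb1, 0.820 FPKM, was the highest of the 9 kd libraries. Results of the 9 genes at 48 h are therefore also given without it where that changes a call. The gene lists were not read without it. A gene was called changed where limma gave an adjusted p under 0.05 together with a log2 fold change past 0.58 in size, on the scale log2(FPKM + 0.01), with adjustment over all genes tested.

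Of the 9 genes, 5 were called in at least 1 of the 3 comparisons of knockdown with control, and 4 (Dnmt1, Uhrf1, Tet1 and Tdg) in none of the 7 comparisons made. The share of all genes was counted per comparison only, so these counts over several comparisons have no background share. At 48 h kd, 1 gene rose (Tet3) and none fell, where 7.89% of the 16108 genes tested passed, 3.59% upward and 4.3% downward. At 72 h kd, set against 48 h ctrl as in the methods of the study, none rose and 2 fell (Dnmt3b and Tet2), where 20.2% of 16146 genes were called, 11.4% higher and 8.86% lower. At 240 h kd, 4 rose (Dnmt3a, Dnmt3b, Dnmt3l and Tet3) and 1 fell (Tet2), where 15.6% of 16633 genes were called, 8.37% higher and 7.23% lower. The 48 h and 72 h comparisons share the 48 h ctrl libraries. No untreated cells were sequenced at 72 h, so at that time the knockdown and the time of harvest cannot be told apart. The median log2 fold change of the 9 genes was -0.05 at 48 h, -0.31 at 72 h and -0.09 at 240 h, beside 0.0069, 0.015 and 0.0077 for all genes tested.

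**Figure D1:**
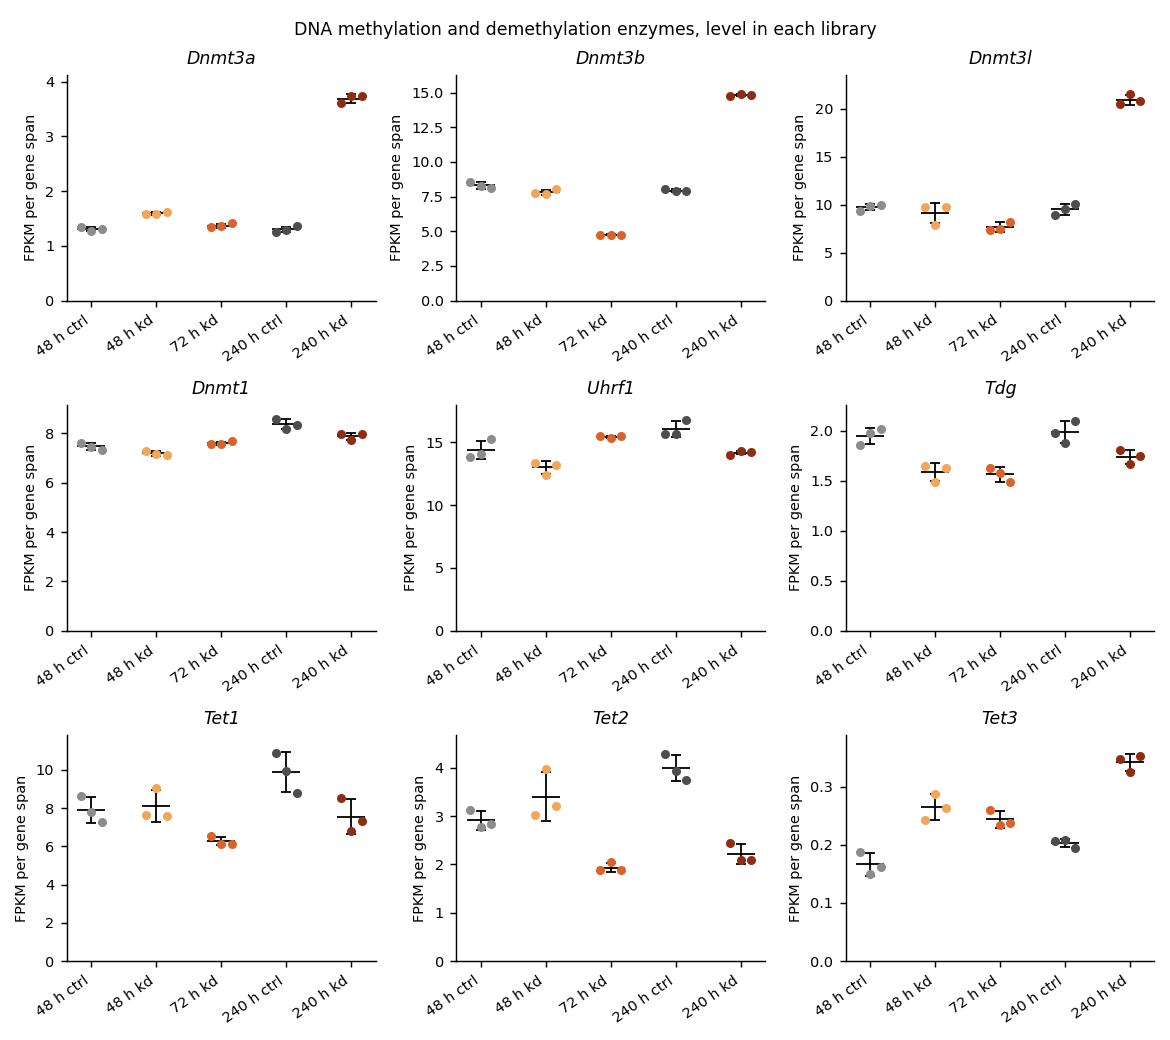
Level of each of the 9 genes in FPKM per gene span (vertical axes, from 0) in the 3 libraries of each group (points), with mean and SD (bars). Dnmt3a, Dnmt3b, Dnmt3l and Tet3 have their highest libraries in 240 h kd, while Dnmt3b has its lowest, 4.70 to 4.77 FPKM, in 72 h kd.

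**Figure D2:**
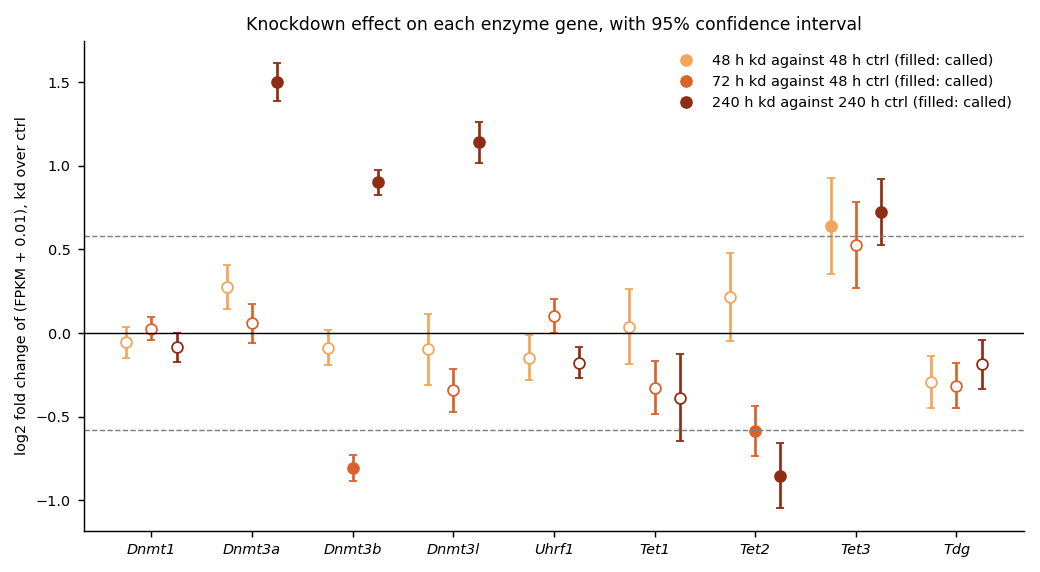
Log2 fold change (vertical axis) of each gene in kd over ctrl at 48 h, 72 h and 240 h with its 95% confidence interval. The 72 h value is 72 h kd over 48 h ctrl. Filled points were called, and dashed lines mark the fold threshold of 0.58. Dnmt3b lies at -0.81 at 72 h and at 0.90 at 240 h.

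Levels were compared between genes per exonic length, as reads over the whole gene per kilobase of annotated exon, scaled to the library total as in FPKM, any counted reads within introns included. In 48 h ctrl the order was Dnmt3l at 70.7 ± 2.44, Uhrf1 at 68.1 ± 3.49, Dnmt3b at 62.3 ± 1.68, Tet1 at 53.3 ± 4.56 and Dnmt1 at 53.3 ± 0.879 (SD, n = 3 each). Below them came Tet2 at 14.1 ± 0.920, Dnmt3a at 8.55 ± 0.241, Tdg at 7.60 ± 0.318 and Tet3 at 0.966 ± 0.116. Libraries overlapped between Dnmt3l and Uhrf1 and between Tet1 and Dnmt1, and between no other neighbours in this order. On the scale of whole gene span, Uhrf1 came first and Tdg stood above Dnmt3a. Late in the knockdown, in 240 h kd, the order on the exonic scale began with Dnmt3l at 152 ± 3.73 and Dnmt3b at 111 ± 0.327, followed by Uhrf1 at 67.1 ± 0.698. Dnmt3a, at 24.0 ± 0.509, then stood above Tet2, at 10.7 ± 0.990, whereas in 240 h ctrl Tet2, at 19.3 ± 1.33, stood above Dnmt3a, at 8.47 ± 0.331.

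Upstream sequences are shown for Dnmt3a, Dnmt3b, Dnmt3l and Tet2, the 4 genes whose knockdown effect differed between 240 h and 48 h, to let the sequence before their starts be compared. Each is 250 bases before a RefSeq transcript start (GRCm38.p6), 5′ to 3′ on the gene's strand, with every CG in capitals. Where RefSeq gives several starts (3 for Dnmt3a and for Dnmt3l), the one farthest upstream whose window touches no annotated exon was taken. Which start was used in these cells was not measured.
Dnmt3a, chr12:3806730-3806979, plus strand: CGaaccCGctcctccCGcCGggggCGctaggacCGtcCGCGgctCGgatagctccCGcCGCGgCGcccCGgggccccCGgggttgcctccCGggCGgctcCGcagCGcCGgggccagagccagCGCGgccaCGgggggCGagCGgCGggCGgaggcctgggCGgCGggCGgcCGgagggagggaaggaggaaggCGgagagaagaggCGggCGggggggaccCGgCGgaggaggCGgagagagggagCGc
Dnmt3b, chr2:153649199-153649448, plus strand: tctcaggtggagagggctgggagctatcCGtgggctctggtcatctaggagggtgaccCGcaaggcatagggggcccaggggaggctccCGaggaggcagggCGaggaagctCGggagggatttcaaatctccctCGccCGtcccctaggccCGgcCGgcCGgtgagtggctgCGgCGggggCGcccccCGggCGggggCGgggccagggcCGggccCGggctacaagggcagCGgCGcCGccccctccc
Dnmt3l, chr10:78049592-78049841, plus strand: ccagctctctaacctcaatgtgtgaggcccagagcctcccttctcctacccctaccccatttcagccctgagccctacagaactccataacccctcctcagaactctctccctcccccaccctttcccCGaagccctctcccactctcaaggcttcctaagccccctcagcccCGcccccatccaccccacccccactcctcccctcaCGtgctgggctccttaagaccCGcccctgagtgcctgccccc
Tet2, chr3:133544391-133544640, minus strand: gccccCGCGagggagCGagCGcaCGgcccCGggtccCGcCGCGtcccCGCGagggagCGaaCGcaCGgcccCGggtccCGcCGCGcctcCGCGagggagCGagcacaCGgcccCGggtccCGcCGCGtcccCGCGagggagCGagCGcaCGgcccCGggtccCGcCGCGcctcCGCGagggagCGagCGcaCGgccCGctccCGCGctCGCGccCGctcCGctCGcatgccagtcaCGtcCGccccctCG

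The windows of Dnmt3a, Dnmt3l and Tet2 lie in introns of longer annotated transcripts of the same gene, and that of Dnmt3b lies in an intron of the antisense transcript Dnmt3bos. The Dnmt3a window holds 38 CG and that of Tet2 holds 51, while the Dnmt3b window holds 21 and that of Dnmt3l holds 4. The median over 32851 such windows is 6. As many CG as in the Dnmt3a window, or more, were found in 1.88% of all windows, and for Dnmt3b, Dnmt3l and Tet2 the share was 16.3%, 62.2% and 0.067%. Of the motifs searched on both strands (the GC box GGGCGG, the CCAAT box, the TATA box TATAAA, the E-box CACGTG, the E2F-type motifs TTTGGCG and also TTTCGCG, and the octamer-type motif ATGCAAA), the GC box, which itself holds a CG, was found in all 4 windows and in 32.7% of all windows. The E-box was found in that of Dnmt3l and in 6.02% of all windows, and the other motifs in none of the 4.

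Dnmt3a, a de novo methyltransferase (ENSMUSG00000020661.15, chr12:3806007-3914443, plus strand), was low in control cells. Its level was 1.35, 1.28 and 1.31 FPKM in 48 h ctrl and 1.26, 1.29 and 1.36 FPKM in 240 h ctrl. It was 1.57, 1.58 and 1.63 FPKM in 48 h kd, 1.34, 1.35 and 1.41 FPKM in 72 h kd and 3.60, 3.73 and 3.74 FPKM in 240 h kd, the last from 5146 to 5870 reads. The 240 h kd libraries stood above all others without overlap, and the 48 h kd libraries came next, also without overlap. Levels of 72 h kd and of both ctrl groups overlapped. At 240 h Dnmt3a rose 2.83-fold (95% confidence interval 2.61 to 3.06), with a log2 fold change of 1.50 (SE 0.05, adjusted p = 1.45e-05). This was the largest change among the 9 genes. The 48 h difference was 0.28 (SE 0.05, adjusted p = 0.0161), under the fold threshold, and the 72 h difference was 0.06 (adjusted p = 0.345). The knockdown effect at 240 h exceeded that at 48 h by 1.22 on the log2 scale (interaction, SE 0.06, adjusted p = 1.34e-06).

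Dnmt3b, the other de novo methyltransferase and the more abundant of the pair in mESC (ENSMUSG00000027478.15, chr2:153649450-153687730, plus strand), moved in opposite directions with time. Control libraries read 8.55, 8.27 and 8.10 FPKM (48 h) and 8.04, 7.89 and 7.89 FPKM (240 h). Knockdown libraries read 7.73, 7.71 and 8.02 FPKM (48 h), then 4.70, 4.75 and 4.77 FPKM (72 h), and last 14.8, 14.9 and 14.8 FPKM (240 h). The 72 h kd libraries lay below and the 240 h kd libraries above all others, while 48 h kd overlapped with 240 h ctrl. Dnmt3b fell 1.75-fold at 72 h (95% confidence interval 1.66 to 1.85, log2 fold change -0.81, SE 0.03, adjusted p = 1.56e-05) and rose 1.87-fold at 240 h (1.77 to 1.96, log2 fold change 0.90, SE 0.03, adjusted p = 1.45e-05). At 48 h the log2 fold change was -0.09 (adjusted p = 0.198). Within the knockdown, where no control is shared, it fell by 0.72 on the log2 scale from 48 h to 72 h (SE 0.04, adjusted p = 0.000307), where 11.5% of 16104 genes were called and 5.1% were lower, and rose by 1.64 from 72 h to 240 h (SE 0.02, adjusted p = 1.35e-06). Both steps rest on the same 72 h kd libraries and hold no control. The effect at 240 h exceeded that at 48 h by 0.99 (SE 0.04, adjusted p = 6.18e-07). The antisense gene Dnmt3bos shares 837 bases with Dnmt3b and had 36 to 168 reads per library, against 2246 to 8262 reads for Dnmt3b.

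Dnmt3l, the catalytically inactive partner of both (ENSMUSG00000000730.13, chr10:78041947-78063622, plus strand), was at 9.36, 9.92 and 9.96 FPKM in 48 h ctrl and 8.92, 9.56 and 10.1 FPKM in 240 h ctrl. The 48 h kd libraries held 9.72, 7.93 and 9.78 FPKM, the 72 h kd libraries 7.32, 7.50 and 8.24 FPKM, and the 240 h kd libraries 20.5, 21.5 and 20.8 FPKM. The 240 h kd libraries stood apart, and 72 h kd lay below both ctrl groups but overlapped with 48 h kd through replicate 2 of the latter. Dnmt3l rose 2.20-fold at 240 h (95% confidence interval 2.02 to 2.40, log2 fold change 1.14, SE 0.05, adjusted p = 3.29e-05). The difference at 72 h was -0.34 (SE 0.05, adjusted p = 0.00206), under the fold threshold, and at 48 h it was -0.10 (adjusted p = 0.477). The effect at 240 h exceeded that at 48 h by 1.24 (SE 0.11, adjusted p = 4.22e-05). Dnmt3l shares 1664 bases with Aire on the opposite strand. Whether counting used the strand was not tested, but Aire, 13589 bases long, had 26 to 168 reads in all, against 2008 to 6773 for Dnmt3l.

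The 3 de novo genes differed among themselves in the early response and moved together late. From 72 h kd to 240 h kd, Dnmt3b rose by 1.64, Dnmt3l by 1.45 (adjusted p = 1.13e-05) and Dnmt3a by 1.43 (adjusted p = 6.69e-06) on the log2 scale, where 22.5% of 16562 genes were called and 10.5% were higher. These were the genes called among the 9 in that comparison. In 72 h kd Dnmt3b was the only one of the 3 to be called. On the exonic scale, the ratio of Dnmt3a to Dnmt3b was 0.137 ± 0.00307 (48 h) and 0.142 ± 0.00679 (240 h) in the controls, against 0.177 ± 0.000710 (48 h), 0.251 ± 0.00576 (72 h) and 0.216 ± 0.00427 (240 h) in the knockdown (SD, n = 3 each). It was higher in every kd library than in any ctrl library. The summed level of Dnmt3a and Dnmt3b was 70.8 ± 1.85 without doxycycline at 48 h, 69.0 ± 1.49 in 48 h kd and 44.4 ± 0.479 in 72 h kd. At 240 h it stood at 68.0 ± 0.450 in ctrl against 135 ± 0.741 in kd.

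The maintenance pair, Dnmt1 and Uhrf1, was called in no comparison. Dnmt1, the maintenance methyltransferase (ENSMUSG00000004099.16, chr9:20907209-20959888, minus strand), lay between 7.12 and 8.56 FPKM in all 15 libraries. At 48 h the mean was 7.47 ± 0.123 FPKM without and 7.19 ± 0.0963 FPKM with doxycycline, and at 240 h 8.36 ± 0.198 and 7.88 ± 0.150 FPKM (SD, n = 3 each). The 72 h kd mean was 7.60 ± 0.0628 FPKM. The log2 fold changes in the knockdown had 95% confidence intervals of -0.15 to 0.04 at 48 h, -0.04 to 0.10 at 72 h and -0.17 to 0.00089 at 240 h. Each interval lay within the fold threshold.

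Uhrf1 (ENSMUSG00000001228.14, chr17:56303321-56323486, plus strand), which binds hemimethylated DNA and recruits Dnmt1, lay between 12.4 and 16.7 FPKM. In 240 h kd it averaged 14.2 ± 0.147 FPKM (SD, n = 3), and each of these libraries lay below the 15.7, 15.7 and 16.7 FPKM of 240 h ctrl. The log2 fold change was -0.18 (SE 0.04, adjusted p = 0.0136), under the fold threshold. At 48 h it was -0.15 (adjusted p = 0.113) and at 72 h 0.10 (adjusted p = 0.0766). The ratio of Uhrf1 to Dnmt1 on the exonic scale stayed between 1.15 and 1.38 over all libraries. The ratio of Dnmt3b to Dnmt1, de novo against maintenance, was 1.17 ± 0.0126 (48 h) and 0.997 ± 0.0152 (240 h) in the controls, against 1.14 ± 0.0364 (48 h), 0.654 ± 0.00415 (72 h) and 1.97 ± 0.0438 (240 h) in the knockdown (SD, n = 3 each).

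**Figure D3:**
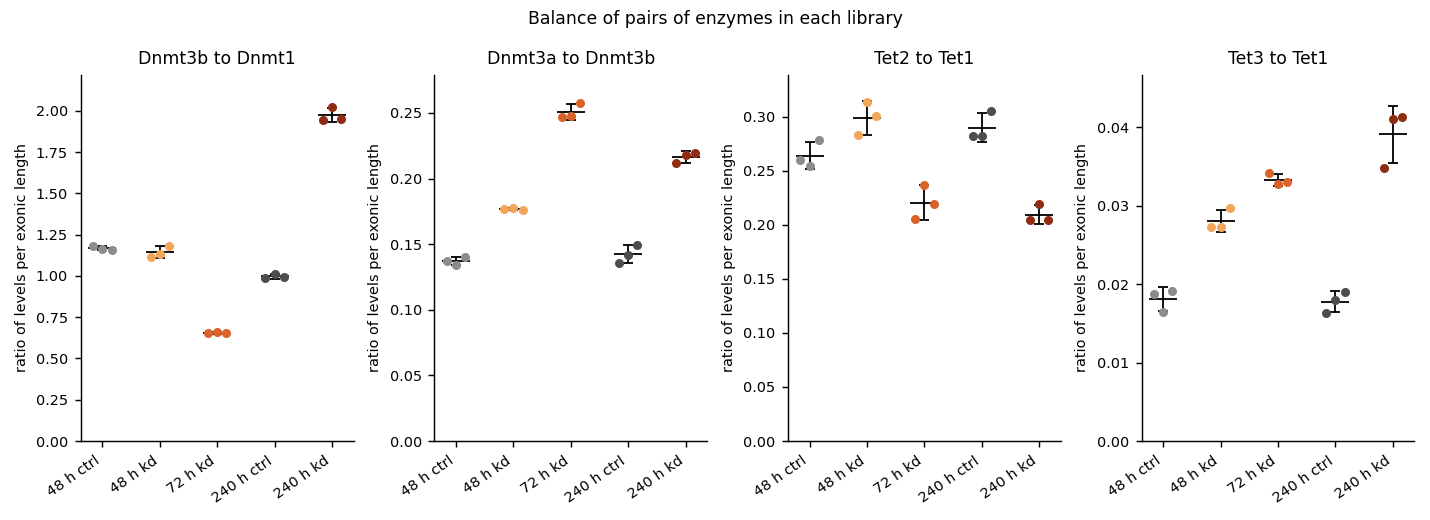
Ratio of levels per exonic length (vertical axes, from 0) for 4 pairs of genes in each library (points), with mean and SD per group (bars). Dnmt3b to Dnmt1 is lowest in 72 h kd, at 0.652 to 0.659, and highest in 240 h kd, at 1.95 to 2.03, and the ratio of Tet3 to Tet1 is higher in every kd library than in any ctrl library.

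Among the genes that remove methylation, Tet2 fell and Tet3 rose at 240 h, and Tet1 was not called. Tet1 (ENSMUSG00000047146.17, chr10:62804570-62908996, minus strand), the main TET gene of mESC, read 8.61, 7.80 and 7.27 FPKM in 48 h ctrl and 7.66, 9.08 and 7.61 FPKM in 48 h kd. It read 6.53, 6.15 and 6.14 FPKM in 72 h kd. In 240 h ctrl it read 10.9, 9.97 and 8.78 FPKM and in 240 h kd 8.55, 6.80 and 7.33 FPKM. The 72 h kd libraries were lowest and did not overlap with any other group, and the 240 h groups did not overlap with each other, although 240 h kd overlapped with 48 h ctrl. The log2 fold change at 72 h was -0.33 (SE 0.07, adjusted p = 0.0058) and that at 240 h -0.39 (SE 0.11, adjusted p = 0.0311), both under the fold threshold. At 48 h it was 0.04 (adjusted p = 0.805). Against 240 h ctrl, the 72 h difference was -0.65 (adjusted p = 0.000725) and would have been called.

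Tet2 (ENSMUSG00000040943.12, chr3:133463679-133545139, minus strand), the TET enzyme without the DNA-binding CXXC domain of its relatives, read 3.13, 2.77 and 2.83 FPKM in 48 h ctrl and 4.29, 3.94 and 3.75 FPKM in 240 h ctrl. Knockdown libraries read 3.03, 3.98 and 3.20 FPKM (48 h), then 1.88, 2.04 and 1.88 FPKM (72 h), and last 2.45, 2.08 and 2.10 FPKM (240 h). The 72 h kd and 240 h kd libraries lay below all others, and 48 h kd overlapped with both ctrl groups. Tet2 fell 1.81-fold at 240 h (95% confidence interval 1.58 to 2.07, log2 fold change -0.85, SE 0.08, adjusted p = 0.000495). It fell 1.50-fold at 72 h (1.35 to 1.67, log2 fold change -0.59, SE 0.06, adjusted p = 0.000408), a value just past the fold threshold that lost its call in 7 of 19 alternatives, including without 48 h ctrl replicate 1 (-0.53) and without 72 h kd replicate 1 or 3 (both -0.57). Against 240 h ctrl in place of 48 h ctrl, the 72 h difference was -1.04 (adjusted p = 5.92e-05). From 48 h kd to 72 h kd, which share no control, it fell by 0.80 (SE 0.11, adjusted p = 0.00275). The 48 h difference was 0.22 (adjusted p = 0.212), or 0.099 without 48 h kd replicate 2, and the effect at 240 h lay below that at 48 h by -1.07 (interaction, SE 0.15, adjusted p = 0.000707).

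Tet3 (ENSMUSG00000034832.15, chr6:83362373-83459084, minus strand), known for oxidising the paternal genome in the zygote, was the lowest of the 9 genes and rests on the fewest reads, 160 to 465 per library. It read 0.188, 0.149 and 0.163 FPKM in 48 h ctrl and 0.207, 0.208 and 0.195 FPKM in 240 h ctrl. Knockdown libraries read 0.243, 0.288 and 0.263 FPKM (48 h), then 0.260, 0.234 and 0.237 FPKM (72 h), and last 0.348, 0.326 and 0.353 FPKM (240 h). Every kd library was above every ctrl library, and 240 h kd was above all others. Tet3 rose 1.56-fold at 48 h (95% confidence interval 1.28 to 1.90, log2 fold change 0.64, SE 0.12, adjusted p = 0.0137) and 1.65-fold at 240 h (1.44 to 1.89, log2 fold change 0.72, SE 0.08, adjusted p = 0.000941). At this low level the 240 h call was lost with pseudocounts of 0.1 (0.54) and 1 (0.16). Its log2 fold change at 72 h was 0.53 (SE 0.11, adjusted p = 0.00614), under the fold threshold, but without 48 h ctrl replicate 1 it was 0.61 (adjusted p = 0.00449) and called. Against 240 h ctrl it was 0.25 (adjusted p = 0.0393). The 48 h call was kept in 10 of 17 alternatives and was lost without 48 h ctrl replicate 2 (log2 fold change 0.57, adjusted p = 0.0527), without 48 h ctrl replicate 3 (0.63, adjusted p = 0.0526) and without 48 h kd replicate 2 (0.58, just under the fold threshold, adjusted p = 0.0331). It was also lost with the replicate block (0.64, adjusted p = 0.06), with no minimum (adjusted p = 0.0854) and with pseudocounts of 0.1 (0.45) and 1 (0.12). The effect did not differ between 240 h and 48 h beyond its error (interaction 0.08, 95% confidence interval -0.22 to 0.38, adjusted p = 0.721).

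Per exonic length, Tet1 made up most of the summed TET level in every group, with the lowest mean share, 75.4% ± 0.885, in 48 h kd and the highest, 80.1% ± 0.685, in 240 h kd (SD, n = 3 each). The share of Tet2 was 20.6% ± 0.760 (48 h) and 22.2% ± 0.759 (240 h) in the controls, against 22.5% ± 0.895 (48 h), 17.6% ± 1.05 (72 h) and 16.8% ± 0.538 (240 h) in the knockdown. That of Tet3 was 1.41% ± 0.105 (48 h) and 1.36% ± 0.0908 (240 h) in the controls, against 2.11% ± 0.104 (48 h), 2.66% ± 0.0908 (72 h) and 3.13% ± 0.276 (240 h) in the knockdown. Tet3 was the smallest part of the total in every group. The summed TET level was 87.2 ± 8.40 in 240 h ctrl, the highest group, and 63.7 ± 7.09 in 240 h kd. It was 72.8 ± 8.16 in 48 h kd and 53.1 ± 1.43 in 72 h kd. In 48 h ctrl it was 68.4 ± 5.45, and its libraries overlapped with those of 240 h kd. The ratio of the summed Dnmt3a and Dnmt3b level to the summed TET level was 0.785 ± 0.0746 in 240 h ctrl and 2.14 ± 0.240 in 240 h kd. In 48 h ctrl, 48 h kd and 72 h kd this ratio was 1.04 ± 0.0544, 0.956 ± 0.112 and 0.837 ± 0.0311, respectively.

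Tdg, the glycosylase that excises the oxidised bases (ENSMUSG00000034674.18, chr10:82629828-82650799, plus strand), was lower in all 3 knockdown groups without passing the fold threshold. It read 1.86, 1.97 and 2.01 FPKM in 48 h ctrl and 1.97, 1.88 and 2.10 FPKM in 240 h ctrl. It read 1.65, 1.49 and 1.63 FPKM in 48 h kd, 1.63, 1.58 and 1.48 FPKM in 72 h kd and 1.81, 1.67 and 1.75 FPKM in 240 h kd. No kd library reached the lowest ctrl library. The log2 fold change at 48 h was -0.29 (SE 0.07, adjusted p = 0.0246), that at 72 h -0.31 (SE 0.06, adjusted p = 0.00361) and that at 240 h -0.19 (SE 0.06, adjusted p = 0.0485).

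Counting groups whose libraries did not overlap, regardless of size, gave 6 of 9 genes at 48 h, 7 at 72 h and 9 at 240 h. Over all genes tested the shares were 41.6%, 65.2% and 53.1%. The interaction between knockdown and time called 4 of the 9, with Dnmt3a, Dnmt3b and Dnmt3l higher and Tet2 lower at 240 h than at 48 h, where 9.87% of 16403 genes were called, 5.25% higher and 4.62% lower. In the controls, limma called none of the 9 between 240 h and 48 h, where 0.623% of genes were called, a share that rests on 101 genes and fell to 0 to 2 genes without any 1 of the 6 libraries. At an unadjusted p under 0.05 there were 5, beside 4045 of the 16215 genes tested, and limma voom on the recovered reads also called 0. Tet2, at 0.45 (SE 0.07, adjusted p = 0.0384), and Tet1, at 0.32 (adjusted p = 0.107), had the largest differences, both higher at 240 h. Among the 5 groups, 240 h ctrl had the highest mean of both genes.

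Marker lists of other cell types were read beside these results. In 240 h kd the summed level of 8 neural markers was 34.4 to 35.8 FPKM against 20.5 to 22.4 FPKM in 240 h ctrl, and that of 8 trophoblast markers 13.3 to 13.7 against 8.19 to 8.77 FPKM. The 8 markers of a 2-cell-like state summed to 2.94 to 3.22 FPKM, with Gm6763 at 0, against 0.0246 to 0.158 FPKM in the controls, where Zscan4f, Tcstv1 and Gm6763 were at 0. The 8 fibroblast markers summed to 1.44 to 1.64 against 0.910 to 1.03 FPKM, with Lum and Postn at 0 in the controls, and the 8 primitive endoderm markers to 1.19 to 1.24 against 0.999 to 1.18 FPKM. Embryonic stem cell markers summed to 1710 to 1774 against 1566 to 1745 FPKM. In 48 h kd, trophoblast markers summed to 6.14 to 6.52 FPKM against 9.54 to 10.2 FPKM in 48 h ctrl, lower where the later times were higher, and neural markers to 26.2 to 30.4 against 20.9 to 22.3 FPKM. Those of the 2-cell-like state summed to 0.0833 to 0.143 FPKM in 48 h kd against 0.0152 to 0.0789 FPKM in 48 h ctrl. Primitive endoderm markers summed to 0.444 to 0.655 FPKM in 48 h kd and 0.281 to 0.498 FPKM in 72 h kd, against 0.894 to 0.955 FPKM in 48 h ctrl. In 72 h kd, trophoblast markers summed to 17.1 to 17.9 FPKM and embryonic stem cell markers to 2538 to 2635 FPKM, against 9.54 to 10.2 and 1743 to 1883 FPKM in 48 h ctrl. Neural markers there summed to 24.2 to 26.3 FPKM and those of the 2-cell-like state to 0.0952 to 0.253 FPKM, against 20.9 to 22.3 and 0.0152 to 0.0789 FPKM. Fibroblast markers summed to 0.576 to 0.695 FPKM in 72 h kd, against 0.764 to 0.966 FPKM in 48 h ctrl. The part of these shifts in the enzyme results was not tested. In bulk RNA, fewer cells of a type and less RNA per cell cannot be told apart.

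Lists of related genes were read for how many passed the same test, and limma voom on the recovered reads gave the same counts as limma for every list and knockdown comparison named. The counts stand beside the 7.89% of all genes called at 48 h, 20.2% at 72 h and 15.6% at 240 h. Of 18 cofactors of DNA methylation, none rose and 1 fell at 48 h, 1 rose and 2 fell at 72 h, and 1 rose and 1 fell at 240 h. Pcna, the replication clamp that Dnmt1 binds, fell at all 3 times, by 0.76 (adjusted p = 0.00144), 0.60 (adjusted p = 5.29e-05) and 0.59 (adjusted p = 0.000494) on the log2 scale. Uhrf2, the paralog of Uhrf1, rose by 0.67 at 72 h (adjusted p = 7.45e-05), where Kdm1b, a histone H3K4 demethylase needed for imprints in oocytes, fell by 0.70 (adjusted p = 0.000176). Dppa3, which keeps Uhrf1 from DNA and shields maternal methylation, rose at 240 h from 12.9 ± 0.489 to 21.0 ± 0.783 FPKM (log2 fold change 0.71, adjusted p = 0.000107). Of 18 S phase genes limma and limma voom called 0 at 48 h and at 240 h, where 8 and 7 had an unadjusted p under 0.05, all of them lower in the knockdown, beside 5644 of 16108 and 8053 of 16633 genes tested, and 1 fell at 72 h, Ccne2 (cyclin E2), by 1.08 (adjusted p = 7.67e-05).

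Of 13 TET partners and cofactors, 12 were tested at 48 h and 72 h and 13 at 240 h, read beside the same shares of all genes (7.89%, 20.2% and 15.6%). At 48 h, 1 rose, Cxxc5, a CXXC zinc finger protein, by 0.584 on the log2 scale (adjusted p = 0.000904). At 72 h, 4 rose and 1 fell. Idh2, the mitochondrial isocitrate dehydrogenase that supplies the TET co-substrate 2-oxoglutarate, rose by 1.16 (adjusted p = 3.16e-05), Cxxc5 by 0.90 (adjusted p = 1.46e-05) and Gadd45a by 0.64 (adjusted p = 9.43e-05). At 240 h, 2 rose and 2 fell. Gadd45a rose by 0.78 (adjusted p = 0.000104), while Wt1 fell at very low levels, 0.0480 against 0.0961 FPKM. Prdm14, a repressor of de novo methyltransferase genes in naive mESC, fell at 240 h from 2.58 ± 0.174 to 1.15 ± 0.0904 FPKM (log2 fold change -1.16, SE 0.08, adjusted p = 0.00013), and its effect at 240 h differed from that at 48 h by -0.98 (adjusted p = 8.83e-05).

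Methyl-CpG readers, base excision repair and the methyl donor cycle were read against the shares of all genes called, 7.89% at 48 h, 20.2% at 72 h and 15.6% at 240 h. Of 10 readers limma and limma voom called 0 at 48 h, where 2 had an unadjusted p under 0.05, beside 5644 of 16108 genes tested. At 72 h Zbtb4 rose by 1.03 (adjusted p = 0.02), from a low level of 0.0737 to 0.153 FPKM at which the fold change depends on the pseudocount, and Zbtb33 (Kaiso) fell by 0.80 (adjusted p = 0.00178), and at 240 h Zbtb38 fell by 0.94 (adjusted p = 0.000209). Of 14 repair genes, 1, 2 and 1 were called. The glycosylase Neil2 rose by 0.67 at 48 h (adjusted p = 0.0105) and by 1.20 at 72 h (adjusted p = 0.000268), but fell by 0.79 at 240 h (adjusted p = 0.00103), and the uracil-DNA glycosylase Ung rose by 0.64 at 72 h (adjusted p = 2.21e-05). Of 15 genes of the methyl donor cycle, 0 were called by limma or limma voom at 48 h, where 7 had an unadjusted p under 0.05, again beside 5644 of 16108 genes, 3 fell at 72 h, among them Tyms by 0.68 and Shmt2 by 0.61, and 2 fell at 240 h (Tdh by 0.67 and Gldc by 0.60).

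The pluripotency lists were read beside the de novo enzymes because these genes are used to mark the passage from naive to primed cells. Over all genes, the shares that rose and fell were 3.59% and 4.3% at 48 h, 11.4% and 8.86% at 72 h, and 8.37% and 7.23% at 240 h. Of 8 tested primed genes, 4 fell and none rose at 48 h, and 5 fell and none rose at 72 h, with Lef1 at -2.62, Otx2 at -1.85 and Sox3 at -1.53 on the log2 scale (largest adjusted p = 6.47e-05, for Sox3). Lef1 was very low, at 0.0112 against 0.121 FPKM at 72 h and 0.0241 against 0.0925 FPKM at 240 h, so that its fold change depends on the pseudocount of 0.01. At 240 h, 3 of 9 rose, Fgf5 by 1.92 (adjusted p = 0.00738; 0.174 against 0.0422 FPKM, so that its fold change also depends on the pseudocount), Sall2 by 1.38 (adjusted p = 3.27e-05) and Dusp6 by 0.99 (adjusted p = 0.000621), and 1 fell, Lef1, by 1.59 (adjusted p = 0.000188). The interaction called 6 of 9 primed genes, all with a higher effect at 240 h than at 48 h, where 5.25% of all genes tested were called in that direction. A call here does not need a raised level at 240 h. Otx2 (interaction 2.16) had a log2 fold change of -1.68 at 48 h and was not called at 240 h (0.47). Sox3 (interaction 1.14) was not called at 240 h either (0.32). Of 12 naive genes, 1 rose and 2 fell at 48 h, 1 rose and 3 fell at 72 h, and 1 rose and 5 fell at 240 h. The gene that rose was Tcl1 at 48 h (by 0.61, adjusted p = 0.00318) and at 72 h (by 1.47, adjusted p = 5.94e-06). At 240 h it was Dppa3 (by 0.71, adjusted p = 0.000107), also counted among the cofactors. Klf4 fell at 240 h by 1.21 (adjusted p = 4.06e-05) and Tbx3 by 1.12 (adjusted p = 9.45e-05). The median log2 fold change at 240 h was 0.32 for primed and -0.45 for naive genes, beside 0.0077 for all genes tested.

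**Figure D4:**
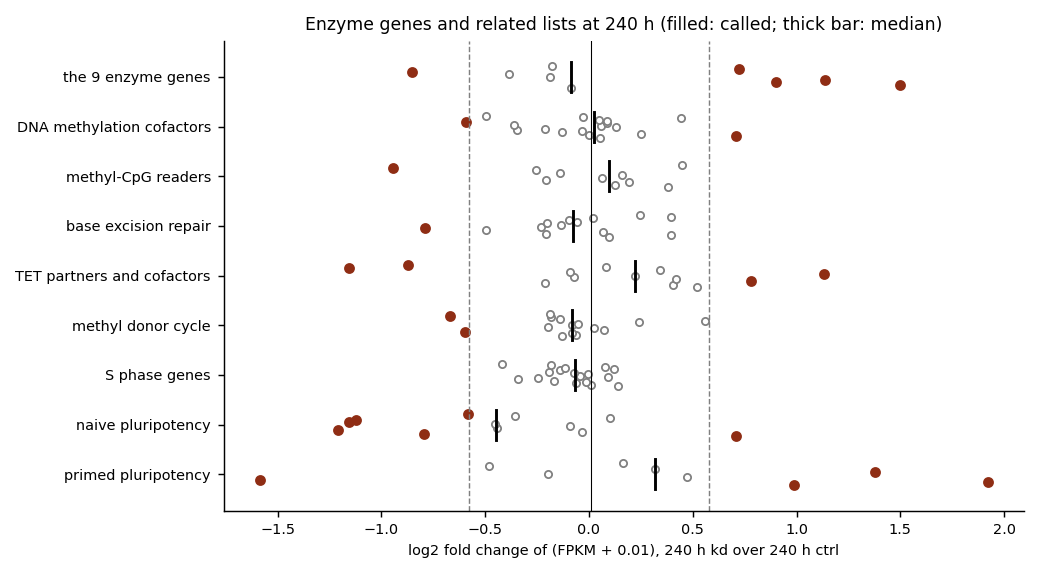
Log2 fold change at 240 h, kd over ctrl (horizontal axis), of the 9 enzyme genes and of 8 lists of related genes (rows, 1 point per gene). Filled points were called, thick bars are list medians, the thin vertical line is the median of all genes tested and dashed lines mark 0.58. Of the enzyme genes 5 are called, and of the listed S phase genes none. Pcna, the replication clamp, is called lower but was placed among the cofactors.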

How the data were processed

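RNA of 15 libraries was measured by single-end sequencing. The authors aligned reads to mm10 (GRCm38.p6) with STAR 2.7.0c and counted them per gene with R packages; the submitters' processing notes also name DESeq2 1.30.0 and R 4.0.3. The gene annotation used for counting is not given in the sources used here. The deposited values are FPKM, 1 per gene and library. Multiplied by whole gene span and 1 total per library, 100% of the deposited FPKM values gave whole reads (tolerance 0.001), and the totals lay between 11074998 and 14515300. The length used thus includes introns. Whether reads within introns were counted, and whether strand was used, was not tested, and values of overlapping genes are uncertain. Of the listed genes, 53297 (96.5%) matched GENCODE M21, which gave identifiers and exonic lengths.

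Since FPKM is not a count, limma 3.58.1 (R 4.3.3; lmFit, eBayes with trend; two-sided) was run on log2(FPKM + 0.01) for genes averaging at least 10 recovered reads over the libraries of a comparison. Benjamini-Hochberg adjustment ran over all genes tested, and a call needed an adjusted p under 0.05 with an absolute log2 fold change past 0.58. A minimum in FPKM per span would leave out long genes such as Tet3. Each comparison was fitted on its own libraries, and an interaction over 12 libraries compared the 240 h with the 48 h effect. With 3 libraries a group, exact permutation cannot reach a two-sided p under 0.10, so it was left out. The fit was tested on simulated data with 2-fold changes in 200 genes, at 1 fixed dispersion of 0.005. It recovered 67.7% of the changed genes tested in the interaction and 81.1% to 87.8% in the other comparisons, with 5 to 9 false calls in each. A gene that was not called is therefore not shown to be unchanged. Alternatives were other pseudocounts, minimums, scalings, thresholds and controls, 1 fit of all libraries, no variance trend, a replicate block, limma voom on the recovered reads and each library left out in turn.

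The 9 genes and the gene lists were chosen with earlier results of these data known. Named from each list were at most the 3 called genes with the largest change in each direction in a comparison, and some of these are not reported here. Most similar genes were ranked by Pearson correlation over 15 libraries among genes averaging at least 100 reads. Promoter windows came from RefSeq (GRCm38.p6), with 16 windows for the 9 genes. Software for tables was pandas 2.3.3 and numpy 2.4.6 on Python 3.11.15, and for figures matplotlib 3.10.9.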

Additional observations from a re-analysis of the deposited data

Results flagged for a closer look

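For 4 of the 9 genes the knockdown effect at 240 h differed from that at 48 h by the interaction test itself (limma, adjusted over all genes tested). On the log2 scale the 240 h effect exceeded the 48 h effect by 1.22 for Dnmt3a (95% confidence interval 1.09 to 1.36), by 0.99 for Dnmt3b (0.89 to 1.08) and by 1.24 for Dnmt3l (1.00 to 1.48). For Tet2 the difference was -1.07 (-1.40 to -0.74). In all 4 the call held in every one of 24 alternatives, including without each of the 12 libraries, at the fold threshold of 0.58. With a threshold above 1, Dnmt3b lost its call and 3 of the 4 kept theirs, beside 697 of all 16403 genes tested. For Tet1 the difference was -0.42 (adjusted p = 0.0841).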

How the results depend on the processing

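The number of the 9 genes called stayed within 1.5 times its value in every alternative not named next. At 48 h it was 3 with no fold threshold and 0 with a threshold above 1, with pseudocounts of 0.1 or 1, with no minimum, with a minimum of 0.5 FPKM and with the replicate block (main value 1), and 0 to 1 without 1 library. Over all genes at 48 h, 3263 of 16108 were called with no fold threshold and 385 above 1. The pseudocounts of 0.1 and 1 gave 720 and 188, no minimum gave 811 of 31727, the minimum of 0.5 FPKM 503 of 11420 and the block 1082. At 72 h (main value 2) it was 6 with no fold threshold, 0 above 1, 1 with either pseudocount, with rescaling to TPM and with a trend with span and GC content removed, and 1 to 2 without 1 library (without 48 h ctrl replicate 1, Tet2 lost and Tet3 gained a call). Over all genes at 72 h, 9176 of 16146 were called with no fold threshold and 1201 above 1. The pseudocounts of 0.1 and 1 gave 2215 and 684, TPM gave 3581, and the removed trend gave 3086 of 15816. At 240 h (main value 5) it was 8 with no fold threshold and 2 above 1, beside 6432 and 1081 of the 16633 genes tested. With no fold threshold it was 1 between the controls (main value 0), 5 from 48 h kd to 72 h kd (main value 2; 0 above 1) and 7 from 72 h kd to 240 h kd (main value 3). Over all genes, no fold threshold gave 444 of 16215, 5920 of 16104 and 9982 of 16562 in these comparisons. From 48 h kd to 72 h kd, 489 genes were called above 1.

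Of 1190 recomputed fold changes of single genes, 1145 kept their direction and side of the thresholds, 16 lost and 2 gained a call, and 27 changed sign. Tet3 lost its 240 h call with pseudocounts of 0.1 (0.54) and 1 (0.16). Tet2 lost its 72 h call with pseudocounts of 0.1 (-0.57) and 1 (-0.41), with TPM (-0.57) and with the trend removed (-0.53). None of the changes of sign concerned a called value. With TPM, the log2 fold change became -0.0028 for Tet1 at 48 h, 0.10, 0.047 and 0.076 for Dnmt3a, Dnmt3b and Dnmt3l between the controls, 0.042 for Tdg from 48 h kd to 72 h kd, and 0.0034 for Dnmt1 and 0.0049 for Uhrf1 in the interaction. With median centring at 72 h it became -0.040 for Dnmt1 and -0.0088 for Dnmt3a, with quantile normalization -0.0010 for Dnmt3a, and with the trend removed -0.071 for Dnmt1 and -0.010 for Dnmt3a, and -0.056 for Dnmt1 from 48 h kd to 72 h kd. Against 240 h ctrl, 72 h kd gave -0.14 for Dnmt1 (adjusted p = 0.0128) and -0.054 for Uhrf1. Leaving out 1 library turned the sign at 48 h of Tet1 (range -0.045 to 0.10) and Dnmt3l (-0.15 to 0.0020), between the controls of Dnmt3a (-0.046 to 0.0090), Dnmt3l (-0.077 to 0.010) and Tdg (-0.014 to 0.065), from 48 h kd to 72 h kd of Tdg (-0.068 to 0.016), and in the interaction of Tet3 (-0.0043 to 0.15) and Uhrf1 (-0.071 to 0.0024). The causes were not tested.

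Over all genes, a pseudocount of 1 gave the fewest calls in the knockdown comparisons (188 against 1271 at 48 h, 684 against 3265 at 72 h, 520 against 2594 at 240 h), since it shrinks genes of low FPKM. Replicate numbers did not pair the libraries: the correlation of deviations of same-numbered libraries ran from -0.20 to 0.19 over 30 pairs, 6 of them over 0.1, and in 11 the same number gave the highest correlation. With the replicate block Tet3 at 48 h kept its log2 fold change of 0.64 with an adjusted p = 0.06, and between the controls the count over all genes went from 101 to 0. That count was also 0 to 2 without any 1 library and 1 with no variance trend, and 307 with TPM. Counting error limits Tet3 most, at 160 to 465 reads a library, and reads carry no molecular identifiers.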

Other observations

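Over the 15 libraries, the genes whose log2 FPKM was most similar to each called enzyme were ranked among 11015 genes by Pearson correlation, given as a description since libraries of 1 group share a condition. For Dnmt3a they were Slc22a22 (0.987), Peg10 (0.985), an imprinted gene of retrotransposon origin, and Igf2bp1 (0.981), which encodes an RNA-binding protein. For Dnmt3b they were Noct (0.990), Cdv3 (0.977) and Neto2 (0.967). Those for Dnmt3l were Vim (0.985), the intermediate filament vimentin, Sparc (0.976), a matrix protein, and the antisense gene Gm45822 (0.974). Dnmt3l ranked 41 for Dnmt3a (0.940) and 59 for Dnmt3b (0.921).

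The genes most similar to Tet2 were Zdbf2 (0.979), an imprinted gene, Csad (0.970) and Nod1 (0.958), and Tet1 ranked 39 (0.896). Those most similar to Tet3 were Ncoa3 (0.970), Lgr4 (0.969) and Zfp936 (0.954). Between Tet2 and Tet3 the correlation was -0.378, and between Tet3 and Tdg -0.575.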
